A study of Macaca fascicularis and Macaca mulatta and Papio anubis with 20 samples.

Results

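Endothelium-rich spots were capture spots of *Macaca fascicularis* dorsal root ganglion sections in which transcripts of blood vessel endothelium took an unusually large share of the captured RNA. They were chosen by a score, 10000 times the summed counts of 10 endothelial genes over all counts of the spot. The genes were PECAM1, VWF, CLDN5, FLT1, EGFL7, CDH5, KDR, EMCN, ESAM and TIE1, and CLDN5 was not among the measured features, so 9 genes carried the score. A spot under tissue with at least 1000 unique molecular identifiers (UMIs, each a captured transcript counted once) was endothelium-rich when its score was above 0 and at or above the 95th percentile of its section. By this rule 563 of 11090 analysed spots were endothelium-rich and 10527 were not. The analysed spots were part of the 21897 spots under tissue.

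Visium arrays capture polyadenylated RNA from a tissue section on a grid of barcoded spots. The ganglia were fresh frozen, bought from a supplier, and cut into sections 10 µm thick and 100 µm apart, which were permeabilized for 12 min. The sections carried 4 title codes, taken here as 4 specimens, which were a female and a male of batch 1 and a female and a male of batch 2. No treatment, allele or age was given in the sources used here. Each specimen had 4 sections, except that the male of batch 2 entered with 3, since its section 3 came as a table without a spot matrix. The labels do not say that a title code is 1 animal, so p-values speak for these specimens only. Each specimen was a block in the gene tests, so differences in level between specimens were taken out of their error. Those p-values set a class difference against its scatter over the specimens and counting error, with information on scatter shared across genes. Because each spot covers several cells, shares are shares of spots, and fewer cells of a type and less RNA per cell cannot be told apart.

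Endothelial cells line every blood vessel and are held together by junction proteins such as PECAM1 and CDH5. In larger vessels they are wrapped by smooth muscle and connective tissue, and in capillaries by pericytes, all inside a shared basement membrane. Dorsal root ganglia hold a dense capillary network around the sensory neuron cell bodies, and these capillaries are known to be more permeable than those inside the peripheral nerve.

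The score values describe the choice and were not tested. The 95th percentile lay between 8.03 and 19.3 over the 15 sections (median 10.9). The lowest score inside had a median over sections of 10.87 and the highest score outside one of 10.83. A section held 14 to 62 endothelium-rich spots (median 36). The score rested on few molecules: 25 of the 563 spots held 1 UMI of the score genes, 202 held 2, and 336 held 3 or more. At least 2 different score genes were present in 432 spots, and 84 spots held EGFL7 alone. Of the other spots, between 27.3% and 68.0% per section (median 44.5%) held no UMI of any score gene.

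EGFL7, a protein that endothelial cells secrete, gave 39.9% of the score UMIs in endothelium-rich spots and 62.2% in the other spots. VWF, the clotting protein stored in endothelial granules, gave 25.7% and 15.7%. PECAM1 gave 11.5% and 6.77%. The VEGF receptors FLT1 and KDR hardly entered: FLT1 had 5 UMIs in endothelium-rich and 18 in other spots, and KDR had 0 and 2. Of the named markers PECAM1, VWF, FLT1 and CDH5, no UMI was found in 125 of the endothelium-rich spots.

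Endothelium-rich spots were shallow. Their median depth was between 1169.5 and 2471 UMIs per section, against 1660.5 to 9334 UMIs in the other spots, and it was the lower value in 15 of 15 sections. The ratio of the medians ranged from 0.218 to 0.784 (median 0.508). Depth is part of the score as its denominator, so this is a description of the choice. For this reason the counts for gene lists and the main comparisons are given also for classes taken at the 95th percentile within each of 3 equal depth bins of a section's spots, called depth-matched classes here. These held 579 endothelium-rich spots, with a median depth of 3028 UMIs in the median section against 3579 UMIs for the others. Over specimens, the endothelium-rich spots summed to 349799 UMIs in the female of batch 1, 459504 in the male of batch 1, 296162 in the female of batch 2 and 162146 in the male of batch 2. In the last of these 1 UMI was worth 6.17 CPM (counts per 1000000 UMIs), so low genes could not be ranked there.

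**Figure D1:**
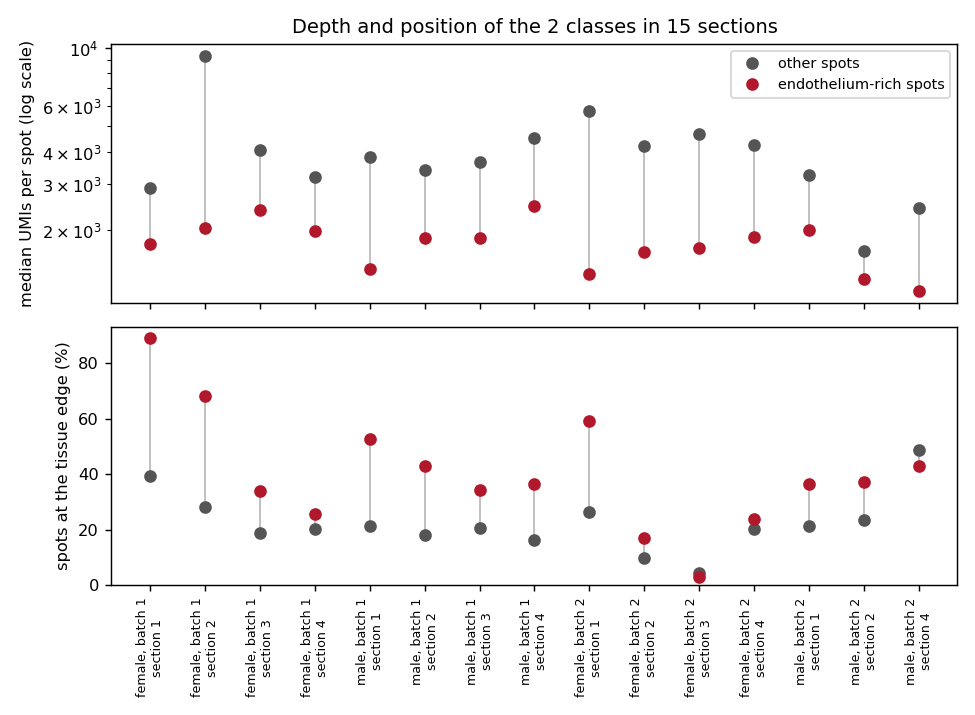
Median UMIs per spot (upper panel, log axis) and percent of spots at the tissue edge (lower panel) for the endothelium-rich (red) and other (grey) analysed spots of each of the 15 sections; each vertical line joins the values of a section. Endothelium-rich spots have the lower median depth in 15 of 15 sections and the larger edge share in 13 of 15.

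The label was checked by leaving each score gene out of the score in turn, classing the spots again by the remaining genes, and testing the left-out gene. All 6 score genes that passed the filter on low counts were higher in the spots chosen without them: PECAM1, VWF, EGFL7, CDH5, EMCN and ESAM. The filter asked for at least 5 CPM over both classes together in at least 2 of 4 specimens, and a gene was called at an edgeR adjusted p under 0.05. In these 6 fits between 15.1% and 18.7% of all genes tested were called (17.4% for PECAM1, 15.1% for VWF, 18.7% for EGFL7, 17.4% for CDH5, 18.1% for EMCN and 18% for ESAM).

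VWF stood at 247, 262, 215 and 152 CPM in the female and male of batch 1 and the female and male of batch 2, against 36.3, 27.8, 43.3 and 56.1 CPM in the other spots. The lowest specimen among the spots chosen without VWF was thus above the highest among the others. Its log2 fold change was 2.56 (edgeR adjusted p = 1.5e-18, SE 0.16), it was higher in 15 of 15 sections, and in depth-matched classes the log2 fold change was 1.82. PECAM1 stood at 117, 137, 114 and 12.5 CPM in the same order, against 16.6, 19.9, 12.0 and 15.5 CPM. It was higher in 3 of 4 specimens, the male of batch 2 being the exception, with a log2 fold change of 2.69 (edgeR adjusted p = 4.3e-11, SE 0.23). EGFL7, the gene that dominates the score, moved least when left out, with a log2 fold change of 1.13 (edgeR adjusted p = 2.9e-12, SE 0.14) and mean levels of 302 ± 46.3 against 137 ± 11.2 CPM (SD, n = 4). CDH5, EMCN and ESAM gave log2 fold changes of 2.47 (SE 0.25), 2.42 (SE 0.31) and 2.43 (SE 0.24), each higher in 4 of 4 specimens. FLT1, KDR and TIE1 did not pass the filter, with 4, 0 and 24 UMIs in the spots chosen without them.

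**Figure D2:**
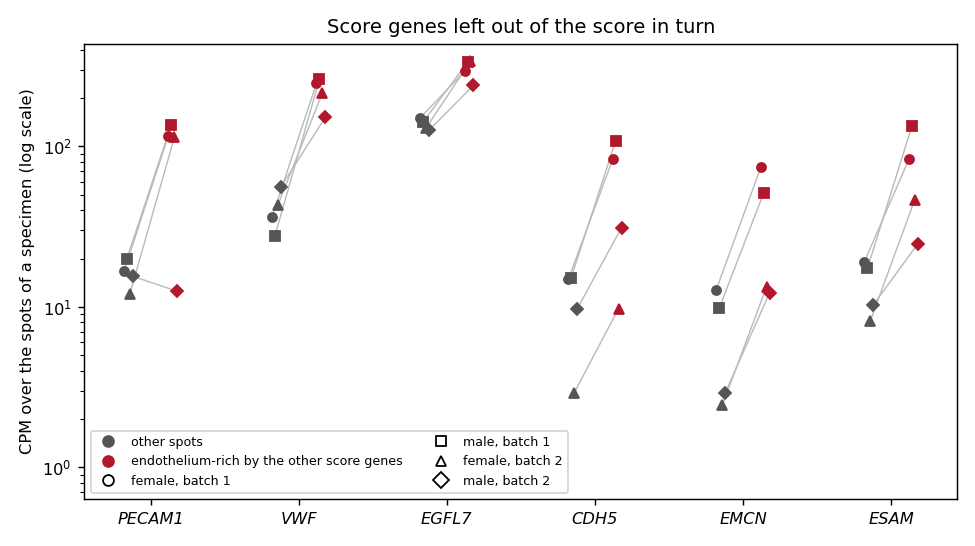
CPM (log axis) of each score gene in spots chosen by the remaining score genes (red) and in all other analysed spots (grey), 1 symbol per specimen, with lines joining the classes of a specimen. The red value is the higher in every specimen for VWF, EGFL7, CDH5, EMCN and ESAM and in 3 of 4 specimens for PECAM1.

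Across all genes outside the score, endothelium-rich spots differed from the other spots of the same specimens most in genes of vessel walls and connective tissue. The rule used these genes only through the spot total. Of 9469 genes tested, 1785 were called (18.9%), 1050 of them higher (11.1%) and 735 lower (7.76%) in endothelium-rich spots. Among the called genes 90 rose by at least 2 on the log2 scale and 9 fell by at least as much. The endothelium-rich sums are the smaller ones, so a large fall of a low gene leaves few UMIs to call it. These 2 counts therefore do not compare the size of rises and falls. In depth-matched classes 724 genes were called (7.65%), 541 higher (5.71%) and 183 lower (1.93%). Of the 1050 rises 507 were called higher there too, and of the 735 falls 153 were called lower. With edge spots left out of both classes, an alternative added after the data were seen, 1210 of 9420 genes were called (12.8%), 676 higher (7.18%) and 534 lower (5.67%). Without the female of batch 1 the count of calls was 762, and without the male of batch 1 it was 583.

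The largest rise with the same direction in 4 of 4 specimens was that of ACTA2, the actin of vascular smooth muscle. It stood at 700, 1164, 108 and 74.0 CPM in the endothelium-rich spots of the female and male of batch 1 and the female and male of batch 2. The other spots of these specimens held 59.0, 37.9, 10.3 and 7.18 CPM. All 4 endothelium-rich values lay above all 4 other values, as did those of MUSTN1, MGP, TAGLN, FBLN1 and LRRC32 among the 12 largest rises. Specimen values did not overlap between the classes for 7.96% of all genes tested. The log2 fold change of ACTA2 was 4.05 (edgeR adjusted p = 2.6e-25, SE 0.18), and it was 3.03 in depth-matched classes.

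FABP4, a fatty acid carrier of capillary endothelium and fat cells, came second with a log2 fold change of 3.51 (edgeR adjusted p = 5.4e-21, SE 0.19). It stood at 177, 242, 142 and 12.3 CPM against 17.9, 21.2, 7.84 and 4.85 CPM, so that the male of batch 2 lay far under the other 3 in endothelium-rich spots. It was the 1 called gene of the 4 adipocyte genes tested. The lipase LPL was not called (0.20, SE 0.12, edgeR adjusted p = 0.259), and ADIPOQ and PLIN1 had 4 and 10 UMIs in the endothelium-rich spots. MUSTN1, a nuclear protein of muscle, had a log2 fold change of 3.16, and RERGL, a small GTPase found in smooth muscle, one of 3.04. MGP, a matrix protein that limits calcification of vessel walls, rose from 36.0 ± 23.4 to 320.3 ± 215 CPM (SD, n = 4), a log2 fold change of 3.14. The remaining rises of the 12 were TGM2 (3.04), an enzyme that crosslinks matrix proteins, SULF1 (2.99), which trims heparan sulfate, PROCR (2.89), the endothelial receptor of protein C, TAGLN (2.89), an actin-binding protein of smooth muscle, FBLN1 (2.88), LRRC32 (2.87), which holds latent TGF-beta at the cell surface, and TNC (2.85), a matrix glycoprotein. All 12 stayed called in depth-matched classes, with log2 fold changes of 1.62 for FBLN1 to 3.03 for ACTA2. In batch 2 the direction of some rested on few UMIs. In the female, where 1 UMI was worth 3.38 CPM, SULF1 stood at 3.38 CPM and TGM2 and PROCR at 6.75 CPM. In the male, where it was worth 6.17 CPM, RERGL stood at 6.17 CPM and PROCR and FABP4 at 12.3 CPM.

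Endothelial genes outside the score moved with it. Of 32 genes listed for endothelial identity, 24 were among the features and 14 were tested, of which 11 rose and 0 fell, beside 11.1% and 7.76% of all genes. Their median log2 fold change was 1.94 (all genes tested -0.01), and the same number, 11, rose in depth-matched classes. Beside each list of this comparison stand the shares of all genes tested, 11.1% higher and 7.76% lower. In depth-matched classes these shares were 5.71% and 1.93%. CAVIN2, a protein of caveolae, stood at 166, 155, 47.3 and 12.3 CPM against 35.9, 25.4, 8.13 and 2.52 CPM, with a log2 fold change of 2.42 (edgeR adjusted p = 8.2e-15, SE 0.19). Each specimen showed the higher level in its endothelium-rich spots, although the levels themselves differed between specimens. In the male of batch 2, where 1 UMI was worth 6.17 CPM, the level of 12.3 CPM lay near the floor. ADGRL4, an adhesion receptor of endothelium, had a log2 fold change of 2.74 (SE 0.29) and did not overlap between classes. RAMP2, a co-receptor of the vasodilator peptide adrenomedullin, stood at 177, 181, 101 and 0 CPM against 33.3, 34.0, 29.2 and 9.51 CPM, and CD34 at 146, 107, 43.9 and 0 CPM against 32.4, 25.4, 11.7 and 5.05 CPM. Both rose over the 4 specimens together (log2 fold changes 2.15 and 2.00), while the endothelium-rich spots of the male of batch 2 held no UMI of either. DESeq2 did not call RAMP2. It was not alone in this: with DESeq2 90 values of the named genes kept direction and call, and 16 lost the call.

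Genes used to tell vessel types apart were measured unevenly. All 6 tested capillary genes rose: after FABP4 these were CD36 (log2 fold change 2.72, SE 0.27), a fatty acid transporter, FCN3 (2.87, SE 0.41), a lectin of complement at 0 UMIs in the female of batch 2, CD300LG (2.00, SE 0.46), SPARC (0.51) and RGCC (0.59). In depth-matched classes 5 of the 6 were called. All 5 tested genes of veins and leukocyte adhesion rose, with a median log2 fold change of 1.68. VCAM1 and ICAM1, which bind white blood cells, had log2 fold changes of 1.68 (SE 0.23) and 1.39 (SE 0.24), EPHB4, a receptor of venous endothelium, 2.50 (SE 0.43), and ACKR1, a chemokine-binding protein of venules, 0.93 (SE 0.15). All 5 were called in depth-matched classes, with a median of 0.97. Among 4 arterial genes only GJA4, a gap junction protein, was called (log2 fold change 2.56, SE 0.33), and the elastic fibre gene FBLN5 was not (0.20, edgeR adjusted p = 0.319). HEY1 and SEMA3G were not called either (-0.23 and 0.24). Of the lymphatic genes, PROX1 was at 0 UMIs in endothelium-rich spots and LYVE1 at 4, and RELN, the member tested, rose by 1.16 (SE 0.18) but was not called in depth-matched classes.

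Regulators of endothelium were called in part. Of 6 transcription factors tested 4 rose: KLF4, induced by blood flow (log2 fold change 2.12, SE 0.27), and the ETS factors FLI1 (2.05, SE 0.31), ETS2 (1.48, SE 0.46) and ETS1 (0.56, SE 0.20), the last not called in depth-matched classes. In the VEGF and angiopoietin list 4 of 7 rose, with ADM (0.99), the gene of adrenomedullin, and the semaphorin and VEGF co-receptors NRP1 (1.15) and NRP2 (0.87) after RAMP2. The growth factor VEGFA itself was not called (0.55, edgeR adjusted p = 0.172). In depth-matched classes RAMP2 and NRP1 were the called genes of this list. Of 7 Notch genes NOTCH2 (1.19, SE 0.24), the Notch target HES1 (2.17, SE 0.46) and RBPJ (0.55, SE 0.19) rose, and NOTCH1 missed the threshold (0.58, edgeR adjusted p = 0.0639). NOTCH2 and HES1 were called in depth-matched classes too, while RBPJ was not (0.28, edgeR adjusted p = 0.243).

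Barrier and basement membrane genes rose in part. Of 10 blood-nerve barrier genes tested 4 rose: SLC2A1, the glucose transporter of barrier endothelium and perineurium (log2 fold change 1.94, SE 0.15, higher in 15 of 15 sections), TJP1 of tight junctions (1.29, SE 0.16), CTNNB1 (0.73, SE 0.12) and the amino acid transporter subunit SLC3A2 (0.52, SE 0.13). SLC2A1, TJP1 and CTNNB1 were called in depth-matched classes, and SLC3A2 was not (0.10, edgeR adjusted p = 0.622). The other 6 were not called, among them the lipid transporter MFSD2A (-0.05, edgeR adjusted p = 0.855) and the transferrin receptor TFRC (-0.46, edgeR adjusted p = 0.0703). Of 8 basement membrane genes 6 rose, led by the laminin chains LAMB2 (1.55, SE 0.15) and LAMA4 (1.17, SE 0.16), the heparan sulfate proteoglycan HSPG2 (1.22, SE 0.14) and the collagen IV chain COL4A2 (0.94, SE 0.15). In depth-matched classes 5 of the 8 were called, with a median log2 fold change of 0.55. HSPG2 stood at 294.5, 279, 81.0 and 117 CPM against 120.5, 112, 29.3 and 74.9 CPM.

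Markers of other cell types moved in the same spots, and their part in the endothelial results was not tested. All 9 smooth muscle genes tested rose (median log2 fold change 2.52), and 8 were called in depth-matched classes (median 1.71). The summed level of this list was between 437 and 8312 CPM per section in endothelium-rich spots (median 2756) and between 313 and 1499 CPM in the other spots (median 484), higher in 15 of 15 sections. Its defining gene MYH11 was at 2 and 8 UMIs in the classes. All 14 fibroblast genes tested rose in both sets of classes (medians 1.94 and 1.03). Their summed level was between 1127 and 15740 CPM (median 10160) against 1259 to 7052 CPM (median 3118), higher in 14 of 15 sections. DCN, a collagen-binding proteoglycan of fibroblasts, stood at 2381, 2235, 699 and 197 CPM against 620 (female of batch 1), 483, 185 and 110.5 CPM. Of 7 pericyte genes 4 rose: RGS5 (2.12, SE 0.19), PDGFRB (1.94, SE 0.26), ZIC1 (2.79, SE 0.38) and HIGD1B (1.90, SE 0.53), the last with 0 UMIs in both endothelium-rich specimens of batch 2, while ABCC9 was at 0 UMIs in both classes. The same 4 were called in depth-matched classes. In the perineurial list 4 of 6 rose, as they did in depth-matched classes, and in the myelinating Schwann list 5 of 10. Of these 10, PRX alone was called in depth-matched classes (0.39), where 5.71% of all genes tested were called higher.

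**Figure D3:**
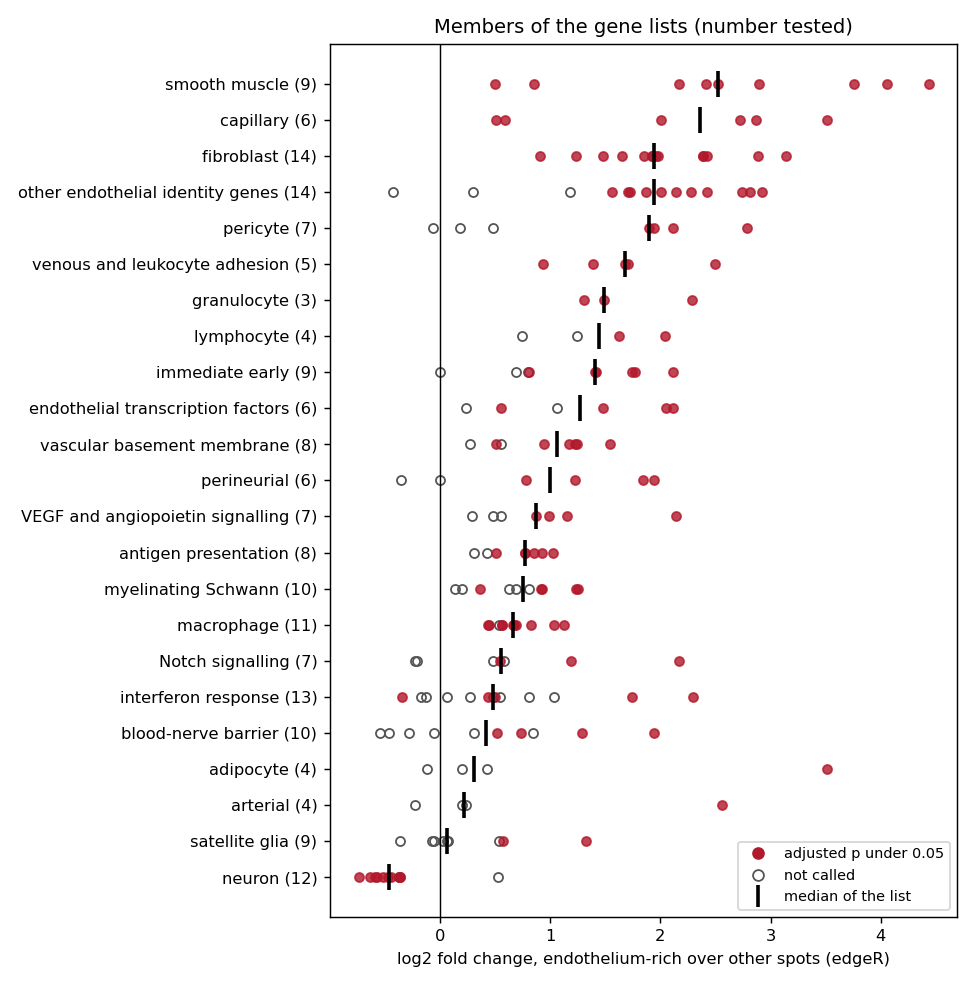
Log2 fold change (endothelium-rich over other spots, edgeR) of every tested member of each gene list with at least 3 tested members; filled red points passed an adjusted p of 0.05, open points did not, and black bars mark list medians. The smooth muscle, capillary, fibroblast and endothelial lists have the highest medians (1.94 to 2.52), and the neuron list has a median of -0.46.

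Neuron genes went the other way. Of 12 tested, 10 fell and 0 rose (median log2 fold change -0.46), beside 7.76% and 11.1% of all genes. The summed level of the list was lower in 15 of 15 sections, 11750 to 30930 CPM (median 23740) against 25450 to 41430 CPM (median 33540). SNAP25, a protein of synaptic vesicle release, stood at 789, 820.4, 972 and 937 CPM against 1494, 1651, 1665 and 1041 CPM, a log2 fold change of -0.74 (edgeR adjusted p = 8.4e-06, SE 0.12). The smallest gap was in the male of batch 2. PRPH, a neurofilament-like protein of peripheral neurons, STMN2 and SNCG fell by 0.63, 0.59 and 0.57. In depth-matched classes 5 of the 12 were called lower, beside 1.93% of all genes. The median there was -0.15, so that the falls were smaller (SNAP25 -0.24, edgeR adjusted p = 0.00860). Satellite glia genes, from cells that wrap the neurons, were mostly uncalled: GJA1 (1.32) and GLUL (0.57) rose, and the other 7 of 9 had log2 fold changes between -0.36 and 0.53.

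The falls that were largest in size rested on few counts. CENPO, SCGN and LHFPL5 were at 0 UMIs in the endothelium-rich spots, where a count of 0 allows up to 3 counts over the class. Against that floor they were at least 2.09-fold, 2.16-fold and 1.98-fold lower than in the other spots. C5orf58 and PCLO, a protein of the presynaptic active zone, held 1 UMI each, PF4V1 held 2, EPS8L2 4 and CLDN3, a tight junction claudin, 7. Their edgeR adjusted p ran from 0.0021 for CLDN3 to 0.0418 for PCLO. In depth-matched classes the edgeR adjusted p of these 8 genes lay between 0.1801 for C5orf58 and 0.8127 for CENPO, with log2 fold changes between -1.11 and -0.29. Of all 735 falls, 78 had under 30 UMIs in endothelium-rich spots.

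Immune and stress-response genes were also higher. Of 11 macrophage genes 10 rose, with small log2 fold changes (median 0.66), led by LAPTM5 (1.04, SE 0.16) and CD68 (1.12, SE 0.22), and 6 were called in depth-matched classes. CD74, the invariant chain of antigen presentation, was higher in 15 of 15 sections (log2 fold change 0.86, SE 0.13), and 6 of 8 genes of its list rose, 5 of them called in depth-matched classes. The 3 tested granulocyte genes S100A8, S100A9 and CAMP rose in both sets of classes. Without edge spots S100A9 stayed called, S100A8 was not called (0.67, edgeR adjusted p = 0.106) and CAMP did not pass the filter. Their list summed higher in 13 of 15 sections, with the highest level in section 1 of the female of batch 2 (1399 against 61.4 CPM). In the male of batch 2 it stood at 350 against 336 CPM in section 1 and at 628 against 689 CPM in section 2. Of the lymphocyte genes GZMB and IL7R were called, and in depth-matched classes none was. Of 13 interferon response genes 4 rose and 1 fell, beside 11.1% and 7.76% of all genes. IFI27 (1.74, SE 0.15) and OAS2 (2.30, SE 0.46) were the largest rises and MX1 was the fall (-0.35, edgeR adjusted p = 0.0443). In depth-matched classes IFI27 and OAS2 were the genes of this list called higher, and MX1 was not called (-0.12, edgeR adjusted p = 0.397). The mast cell gene KIT was not called (-0.67, edgeR adjusted p = 0.173), red blood cell genes did not pass the filter, and the skeletal muscle gene TNNC2 was not called (0.06). Of 9 immediate early genes, which are switched on within minutes of a stimulus, 6 rose in both sets of classes: ZFP36, BTG2, FOS, DUSP1, NR4A1 and JUN. Their list summed to between 314 and 9818 CPM per section (median 1946) against 309 to 2942 CPM (median 689).

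Endothelium-rich spots lay at the tissue edge more often than the others. A spot was at the edge when fewer than 6 of its 6 nearest array positions were under tissue. The edge share, averaged over the sections of a specimen, was 54.2%, 41.5%, 25.8% and 38.9% in the female and male of batch 1 and the female and male of batch 2, against 26.6%, 19.0%, 15.3% and 31.2% of the other spots. The means were 40.1% ± 11.7 and 23.0% ± 7.22 (SD, n = 4). The difference of 17.1 ± 9.52 percentage points was positive in 4 of 4 specimens and in 13 of 15 sections. An exact two-sided sign-flip permutation test over the 4 specimens gave p = 0.125, the smallest value it can reach. In depth-matched classes the difference was 15.3 percentage points. Without edge spots in either class, all 14 fibroblast genes, 6 smooth muscle genes and 8 of the endothelial identity genes were called higher, and 9 neuron genes were called lower.

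Endothelium-rich spots had endothelium-rich neighbours more often than other spots did. Of their analysed neighbours 4.92% to 27.5% per section were endothelium-rich (median 13.4%), against 2.43% to 4.62% (median 3.52%) of the neighbours of other spots, with the first value higher in 15 of 15 sections. In the 8 sections of batch 1 the share was 10.9% to 27.5% (median 21.3%), and in the 7 sections of batch 2 it was 4.92% to 7.34% except for 25.0% in section 1 of the female. In depth-matched classes, an alternative added after the data were seen, the share was 10.1% to 28.6% in batch 1 against 3.54% to 4.51% for other spots. In batch 2 it was 4.21% to 8.51%, again except for section 1 of the female (22.0%), against 3.84% to 5.495% for other spots, and it was the higher value in 6 of 7 sections. These shares were not tested. In the authors' deposited table of Moran's I, which is high where nearby spots hold like levels of a gene, VWF had the highest median of the score genes, 0.0345 over 16 sections, with an adjusted p under 0.05 in 10 of them. EGFL7 had a median of 0.0232 with 8 such sections, CDH5 one of 0.0101 with 4, PECAM1 one of 0.0063 with 5 and ESAM one of 0.0029 with 3, in the authors' deposited table. The medians of EMCN (-0.00101), TIE1 (-0.00139), FLT1 (-0.00106) and KDR (-0.000501) in the authors' deposited table were below 0, with 2, 2, 0 and 0 such sections, and FLT1 and KDR were listed in 13 and 2 sections.

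**Figure D4:**
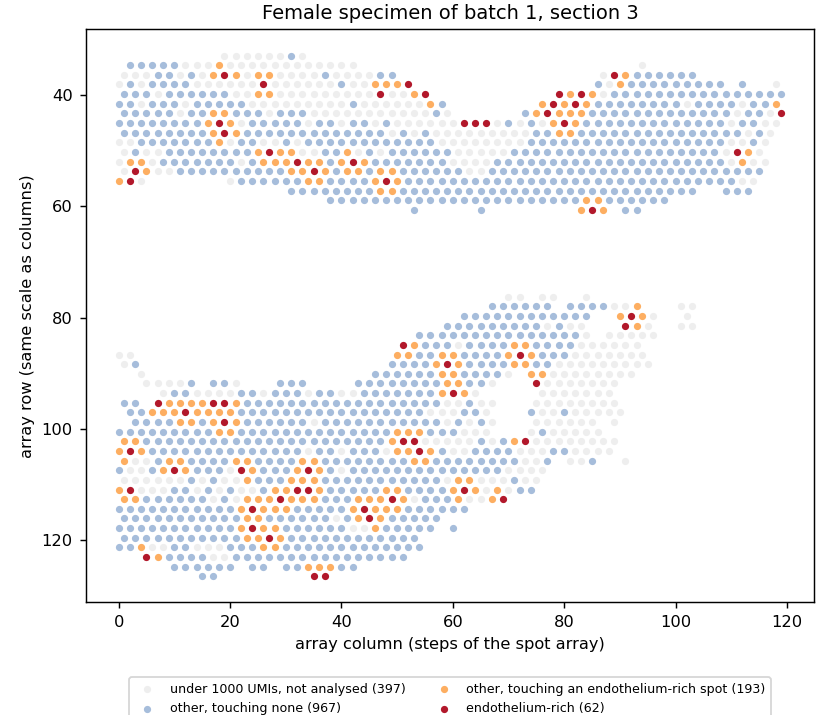
Spots under tissue of section 3 of the female of batch 1, the section with the most endothelium-rich spots, at their array positions. The 62 endothelium-rich spots (red) are scattered over both tissue pieces, and 10.9% of their analysed neighbours are endothelium-rich. Around them lie 193 other spots that touch them (orange), 967 that touch none (blue) and 397 spots with too few UMIs (light grey).

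Spots that touched an endothelium-rich spot without being one were compared with other spots that touched none. There were 1522 touching and 9005 not touching. The touching spots carried more connective tissue and vessel wall RNA: of 9452 genes tested 278 were called (2.94%), 216 higher (2.29%) and 62 lower (0.656%). The score genes stayed in this test, although the rule had used them to sort the spots. Of the 6 that passed the filter 3 were called, all higher (VWF, PECAM1 and ESAM), and these 3 are no independent result. SFRP4, a secreted antagonist of Wnt signalling, had the lowest p, with a log2 fold change of 1.60 (edgeR adjusted p = 3.2e-10, SE 0.11) and mean levels of 325 ± 367 against 98.9 ± 106 CPM (SD, n = 4), higher in 3 of 4 specimens. PTGDS, a prostaglandin synthase of leptomeningeal and connective tissue cells, had one of 0.90 (SE 0.07), MGP 1.29 (SE 0.12), ACTA2 1.45 (SE 0.13) and the collagen chain COL1A1 0.90 (SE 0.09). PTGDS and MGP were higher in 4 of 4 specimens. SFRP4, ACTA2 and COL1A1 were lower in the male of batch 2, at 5.16, 5.16 and 1.29 CPM against 7.09, 7.54 and 1.60 CPM. In the female of batch 2 they stood at 12.3, 17.7 and 0.84 CPM against 9.90, 9.09 and 0.47 CPM. All 14 tested fibroblast genes rose (median 0.85), 6 of 8 smooth muscle genes rose, and 4 of 13 endothelial identity genes did (CAVIN2, CD34, JAM2 and PALMD). On the other side MRGPRX1, an itch receptor of small sensory neurons, had a log2 fold change of -1.12 (SE 0.20), SCN11A, a sodium channel of pain neurons, -0.52 (SE 0.10), RBP4 -0.46, OLFM1 -0.34 and CLDN3 -0.87. SCN11A was lower in 3 of 4 specimens and stood at 378 against 340 CPM in the male of batch 2. In the endothelium-rich spots themselves SFRP4 had a log2 fold change of 2.49 and SCN11A one of -1.01, and both comparisons share the spots that touched none, so their values stand side by side only.

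Touching spots were shallower too, with a lower median depth in 13 of 15 sections. The contact comparison was repeated with the endothelium-rich spots of the depth-matched classes. There 19 genes were called, 15 higher and 4 lower, and 6 of the higher ones were fibroblast genes. Touching and not touching spots were not themselves matched on depth in that setting. Of the 10 genes named here 5 were called there: SFRP4 (0.69), ACTA2 (0.66), MGP (0.43), COL1A1 (0.33) and RBP4 (-0.22). The other 5 were not, with log2 fold changes of 0.16 for PTGDS, -0.17 for MRGPRX1, -0.12 for SCN11A, -0.15 for OLFM1 and -0.35 for CLDN3, and edgeR adjusted p between 0.155 and 0.918. The count was 64 without the female of batch 1, 56 without the male of batch 1 and 432 without the male of batch 2. With single sections left out it was lowest at 175 (section 3, female of batch 1) and 181 (section 1, female of batch 2).

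The effect of the class differed between batches for some of these genes. Of 9469 genes 43 were called for this difference (0.454%), 9 with a higher effect in batch 2 (0.095%) and 34 with a lower one (0.359%). Batches hold different specimens and were processed with different Space Ranger versions. The classes also differed in make-up. The share of endothelium-rich spots with at least 2 score genes ran from 15 of 22 to 34 of 35 over the sections of batch 1. Over those of batch 2 it ran from 5 of 14 to 22 of 27. Batch, specimen, version and the make-up of the class cannot be told apart. The immediate early genes showed it together: the effect was smaller in batch 2 for 6 of 9 tested, and these were the 6 that rose over all specimens. FOS stood at 906 and 766 CPM in the endothelium-rich spots of the female and male of batch 1, against 246 and 138 CPM in their other spots, and at 57.4 and 179 CPM against 32.3 and 117 CPM in batch 2. The difference of its log2 fold changes, batch 2 minus batch 1, was -1.48 (edgeR adjusted p = 1.3e-05, SE 0.25). It was -1.58 for BTG2, -1.29 for NR4A1, -1.16 for JUN, -1.09 for ZFP36 and -1.05 for DUSP1, and all 6 were called in depth-matched classes.

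Of 9 smooth muscle genes, TAGLN and CNN1 were called for the batch difference, both with the smaller effect in batch 2. TAGLN stood at 926 and 1021 CPM against 103 and 89.7 CPM in batch 1, and at 533.5 and 154 CPM against 90.25 and 54.8 CPM in batch 2, a difference of -1.06 (edgeR adjusted p = 2.1e-04, SE 0.20). The difference for CNN1 was -3.43. Outside that list the differences were -2.95 for TGM2, -2.36 for KLF4, -2.05 for MUSTN1, -1.02 for SLC2A1 and -1.01 for ITGB4. CNN1 and ITGB4 were not called in depth-matched classes (edgeR adjusted p = 0.191 and 0.0656). Among the genes with a higher effect in batch 2 were SOD2 (0.93), CALCB (0.76), MAP1LC3A (0.96) and SPOCK3 (0.93), none of them called in depth-matched classes. No gene of the endothelial identity, capillary, or venous lists was called for the batch difference. The median differences of these lists, batch 2 minus batch 1, were -0.62, -0.07 and -0.40. The median was -0.87 for the smooth muscle list and -0.02 for all genes tested. The count of 43 was 12 without the female of batch 1, 183 without the female of batch 2 and 61 without the male of batch 2. It was 0 without the male of batch 1, where edgeR gave 364 genes an unadjusted p under 0.05.

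**Figure D5:**
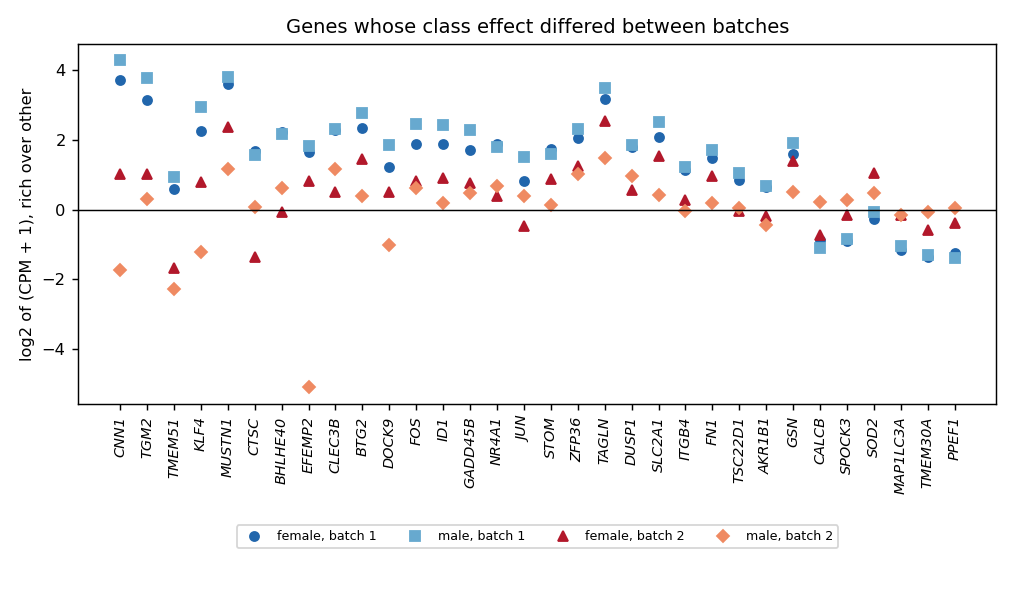
Log2 of (CPM + 1) in endothelium-rich over other spots for each specimen (blue shades batch 1, red shades batch 2), for the genes with a symbol whose class effect differed between batches at an adjusted p under 0.05. For FOS the batch 1 values are 1.88 and 2.46 and the batch 2 values 0.81 and 0.61.

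Between sexes 2 genes were called (0.0211%), both with a lower effect in males and none with a higher one, and 240 had an unadjusted p under 0.05. S100A9, a calcium-binding protein of granulocytes, stood at 25.7 and 142 CPM in the endothelium-rich spots of the females of batches 1 and 2, against 7.57 and 17.4 CPM, and at 17.4 and 123 CPM against 5.60 and 142 CPM in the males. The difference, male minus female, was -2.43 (edgeR adjusted p = 0.00324, SE 0.45). The log2 ratio of (CPM + 1) was 1.64 and 2.95 in the females and 1.48 and -0.20 in the males, so that the male of batch 2 was the 1 specimen without the higher level in endothelium-rich spots. In depth-matched classes the difference was -1.41 (edgeR adjusted p = 0.119). The granulocyte list, which holds S100A9, summed to 1399 CPM in the endothelium-rich spots of section 1 of the female of batch 2. In section 2 of that specimen it summed to 67.8 CPM. The specimen values of S100A9 do not show how much of the difference rests on 1 section. The other call was a feature without a symbol. The count of 2 was 7 without the male of batch 1, and 0 without the female of batch 2, where edgeR gave 161 genes an unadjusted p under 0.05. No other tool was run for the batch and sex differences. With 2 specimens of each sex, sex and specimen cannot be told apart.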

How the data were processed

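The members and gene lists were chosen with earlier results of these data known. The deposited matrices hold UMI counts per gene and spot, made by the authors with Space Ranger 2.0.0 in batch 1 and 2.1.0 in batch 2, per the file headers. Build Mmul_10 is named in the submitters' processing notes, while feature identifiers begin with ENSMFAG, the Ensembl prefix of *M. fascicularis*, and no coordinates are given here. Moran's I, a score per gene and section, and its p-value and adjusted p-value were deposited by the authors and only described. Of 22000 features 15068 carried a symbol, and the others stayed in totals and tests. Sections of other primate species were not used here. The 15 matrices shared 4976 of 4992 barcodes, which are fixed array positions.

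Spots under tissue with at least 1000 UMIs entered, between 270 and 1222 per section, and sections held between 1136433 and 7073134 UMIs under tissue. Counts were summed per specimen and class and tested with edgeR 4.0.16 in R 4.3.3 (quasi-likelihood test, TMM, specimen as a block, Benjamini-Hochberg adjustment over all genes tested). DESeq2 1.42.0 and limma 3.58.1 (voom) were alternatives. Score genes stayed in library sizes but were left out of the tests of the classes and of the batch and sex differences. They were not left out of the contact comparison. Standard errors are the log2 fold change over the root of F. On simulated counts for the comparison of classes, with 9469 genes of which 200 were changed, 69% of 2-fold and 90% of 4-fold changes were recovered with 7 false calls. CPM values are per UMI total, so precision is limited by counting error in the endothelium-rich sums. Both classes come from the same sections, which is the source of the pairing.

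Named genes were the score genes, among called genes with a symbol and 1 direction in 4 of 4 specimens the 12 largest rises and 8 largest falls, up to 4 members of each list with the lowest p, and the 5 called genes with the lowest p in each direction of the contact comparison. Others, among them the genes of the batch and sex differences, were named after their values were seen. Doublets do not apply to spots, and no doublet caller was run.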

Additional observations from a re-analysis of the deposited data

Results flagged for a closer look

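Among 196 groups of 4 values examined (sections of a specimen, or the 4 specimens), 13 held a value far from the other 3, and chance alone gives about 1 in 20. In the female of batch 1, section 2 had the lowest ratio of median depths, 0.218 against 0.589 to 0.625 in the other sections. In that section the basement membrane list stood apart, with a log2 ratio of 1.12 against 0.54 to 0.64, and so did the mast cell list, with -4.26 against -0.49 to -0.34. The mast cell list was at 0 CPM in the endothelium-rich spots there and at 18.2 CPM in the other spots, so its ratio is a value at the floor. In the female of batch 2, section 1 had the most clustered endothelium-rich spots, 25.0% of whose neighbours were endothelium-rich against 4.92% to 6.02% in the others. The VEGF and angiopoietin list was highest there (log2 ratio 2.32 against 0.33 to 0.52) and the satellite glia list lowest (-0.21 against 0.34 to 0.38). In section 2 of that specimen the adipocyte list was at 0.28 against 0.07 to 0.11.

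Over specimens, the log2 ratio of (CPM + 1) of RAMP2 was -3.39 in the male of batch 2 against 1.76 to 2.38 in the others, that of CD34 -2.60 against 1.82 to 2.14, that of OAS2 -2.29 against 1.99 to 2.52, and that of COL4A2 0.02 against 1.00 to 1.15. RAMP2, CD34 and OAS2 had 0 UMIs in the endothelium-rich spots of that specimen. PCLO was at -1.21 in the male of batch 1 against -2.93 to -2.85, and CD300LG at 2.29 in the female of batch 2 against 1.73. Both are values near the floor. PCLO held 1 UMI over all endothelium-rich spots, and CD300LG stood at 6.75 CPM in those of the female of batch 2, where 1 UMI was worth 3.38 CPM.

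The class effect differed between groups by edgeR's test of the difference. Batch 2 minus batch 1, the log2 fold changes differed by -1.02 for SLC2A1, -1.58 for BTG2, -2.05 for MUSTN1, -1.05 for DUSP1, -1.48 for FOS, -1.06 for TAGLN, -2.36 for KLF4, -2.95 for TGM2, -1.01 for ITGB4 and -1.09 for ZFP36. Male minus female, S100A9 differed by -2.43.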

How the results depend on the processing

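For the 1785 genes called between the classes, DESeq2 gave 1004, at least 2000 UMIs per spot 1106, depth-matched classes 724 and a score after thinning spots to 1000 UMIs 284. Thinning left many tied scores, so 1739 spots became endothelium-rich. In the paired design, dropping the specimen block (no replicate block) left 7 genes, all higher, and the section as replicate block gave 2629 (908 higher, 1721 lower), within 1.5 times. Without a filter on low counts 899 were higher and 1126 lower. Leaving out a specimen or a section gave 583 to 2207. Score genes called when left out stayed at 6, or 5 to 6 in the leave-outs. For touching against not touching spots (278), at least 2000 UMIs gave 101, contact with the endothelium-rich spots of the depth-matched classes 19, and leave-outs 56 to 432. The batch difference (43) ranged from 0 to 183 in leave-outs. The sex difference (2) was 7 with sections as samples and 4 without a filter, and ranged from 0 (161 at an unadjusted p under 0.05) to 7 in leave-outs. The edge difference ranged from 13.6 to 20.2 percentage points in leave-outs. After thinning, 4 falls changed sign, none of them called: C5orf58 (0.08), PCLO (0.05), PF4V1 (0.45) and EPS8L2 (0.20). Of 3651 other values of the named genes 3249 kept direction and call and 358 lost the call; of 148 values of the held-out score genes all kept both. The cause of these changes was not tested. Depth limits low genes most: 78 falls and 101 rises had under 30 UMIs in endothelium-rich spots.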
